A study of Mus musculus with 8 samples.

Results

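Across 8 ATAC-seq peak lists, 839 chromatin regions carried a peak in both libraries of hypoxic BV2 monoculture and in none of the 6 other libraries. ATAC-seq marks accessible DNA through insertion of the Tn5 transposase, and a peak is a stretch where the authors' caller found more insertions than the local background. BV2 is an immortalised mouse microglial line and GL261 is a mouse glioma line. Each of 4 groups had 2 biological replicates: BV2 alone in normoxia (21% O2), BV2 alone in hypoxia (below 0.1% O2), BV2 seeded onto GL261 cells in normoxia, and the same co-culture in hypoxia. The last incubation lasted 16 h in every group. All cells were formaldehyde-fixed and sorted before the assay, on CD45 or on GFP, and which gate was used for which library is not given in the sources used here. The BV2 and GL261 lines limit these groups as a model of microglia and glioma, since both are long-cultured lines.

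The regions were found by merging overlapping peaks of all 8 lists on chromosomes 1 to 19 and X, which gave 40770 regions, and by keeping those that a peak of each hypoxic monoculture list touched by at least 1 bp and that no peak of another list touched. They were therefore selected on the presence or absence of peaks in the same 8 lists, and neither their restriction to hypoxic monoculture nor their number is a test of that restriction. They made up 2.06% of the merged regions. By the same rule 16 regions (0.0392%) were found only in normoxic monoculture, 315 (0.773%) only in normoxic co-culture and 807 (1.98%) only in hypoxic co-culture.

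Accessible regions fall broadly into promoters, at the starts of genes, and distal elements such as enhancers, which lie between or inside genes and tend to differ more between cell types and states. In low oxygen the prolyl hydroxylases that mark HIF alpha subunits for degradation lose activity, and the HIF heterodimer binds hypoxia response elements with the core ACGTG or GCGTG. In myeloid cells, PU.1, C/EBP and AP-1 factors occupy many distal elements. The absence of a peak from a list says that a threshold was not passed there, and not that the DNA was closed.

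Sequence could be shown for the members that overlap a promoter window, 250 bases before to 50 bases after an annotated start, in a RefSeq table of GRCm38.p6. Of the 839 regions, 13 overlapped 14 such windows, of 9 protein-coding genes and 5 long non-coding RNAs. The sequences below are the 250 bases before the start for the 5 genes whose window held the core ACGTG or GCGTG inside the member region itself. They were picked after their bases were seen. Capitals mark 3 motifs on either strand, which are the hypoxia core ACGTG, its variant GCGTG, and an AP-1 site written TGANTCA, where N stands for any base.
Cd244a: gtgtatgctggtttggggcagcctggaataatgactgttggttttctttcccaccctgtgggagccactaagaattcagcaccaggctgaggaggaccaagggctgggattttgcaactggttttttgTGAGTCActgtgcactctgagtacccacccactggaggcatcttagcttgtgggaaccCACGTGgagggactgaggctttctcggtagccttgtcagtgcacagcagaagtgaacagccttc
Kcnn4: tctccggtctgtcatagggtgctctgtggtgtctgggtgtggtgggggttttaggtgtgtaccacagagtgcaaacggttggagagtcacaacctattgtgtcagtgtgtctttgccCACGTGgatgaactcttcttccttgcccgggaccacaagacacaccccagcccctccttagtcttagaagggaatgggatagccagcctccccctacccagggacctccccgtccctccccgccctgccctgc
Itpripl1: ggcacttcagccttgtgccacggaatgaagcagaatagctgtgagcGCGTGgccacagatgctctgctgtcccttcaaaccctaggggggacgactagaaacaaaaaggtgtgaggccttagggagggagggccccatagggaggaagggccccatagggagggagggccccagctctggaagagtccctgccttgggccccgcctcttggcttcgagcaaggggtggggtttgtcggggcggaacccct
Gm32620: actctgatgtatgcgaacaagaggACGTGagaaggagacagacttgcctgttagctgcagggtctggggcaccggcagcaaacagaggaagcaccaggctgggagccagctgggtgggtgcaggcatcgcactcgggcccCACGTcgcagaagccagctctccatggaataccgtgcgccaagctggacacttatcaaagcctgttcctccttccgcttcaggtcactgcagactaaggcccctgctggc
Gm34349: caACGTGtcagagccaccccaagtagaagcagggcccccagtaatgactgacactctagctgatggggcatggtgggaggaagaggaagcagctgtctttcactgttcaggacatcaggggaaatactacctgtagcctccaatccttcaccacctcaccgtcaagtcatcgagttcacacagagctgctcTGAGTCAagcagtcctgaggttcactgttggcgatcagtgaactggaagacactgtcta

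The Cd244a window is at chr1:171558943-171559192 on the plus strand, Kcnn4 at chr7:24370013-24370262 on the plus strand and Itpripl1 at chr2:127143458-127143707 on the minus strand. The non-coding Gm32620 is at chr15:83033066-83033315 on the plus strand and Gm34349 at chr3:122480228-122480477 on the minus strand. Cd244a encodes a receptor of the SLAM family on natural killer and myeloid cells, and its region had its summits at -165 and -228 bp from the start in replicates 1 and 2. Its sequence holds a TGANTCA match and the palindrome CACGTG, which reads as ACGTG on both strands. Kcnn4 encodes a calcium-activated potassium channel present in microglia, and the summits there were at -357 and -267 bp, with CACGTG in the window. Gm32620 shared its region with the start of Nfam1, an immune receptor gene on the other strand, and this was the highest ranked of the promoter members, with percentiles of 36.0 and 39.5 in the 2 lists. Rab20, a small GTPase of endosomes and phagosomes, also had both cores in its window, but its region reached the window only at its end and held neither core there.

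Of the 14 windows, 13 had no unknown base. The whole 300 bases were searched on both strands, and then only the bases inside the overlapping region, a median of 184 for the members and all 300 for windows overlapped by any merged region. ACGTG was found in 7 of 13 whole windows (53.8%), against 27.3% of the 11408 windows overlapped by any merged region and 19.8% of all 32609 windows. Inside the regions themselves it was in 4 of 13 (30.8%), against 25.8%. GCGTG was in 3 of 13 whole windows (23.1%), against 52.5% and 32.6%, and in 1 of 13 (7.69%) inside the regions, against 50.3%. Either core was present in 61.5%, 64.3% and 44.0% of whole windows.

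CACGTG, which contains ACGTG, was in 4 of 13 whole windows (30.8%), against 10.4% and 7.2%, and in 2 of 13 (15.4%) inside the regions, against 9.96%. GAGGAAG, a purine-rich stretch of the kind PU.1 and other ETS factors bind, was in 5 of 13 inside the regions (38.5%), against 13.1%. The AP-1 letters TGANTCA were in 2 of 13 inside the regions (15.4%), against 5.12%. Of 11 motifs searched in whole windows, the other 6 were part of a cyclic AMP response site (TGACGT), at 0 of 13 against 12.6% of windows overlapped by any region, an NF-kappaB site (GGGANTTTC), at 0 against 0.929%, and C/EBP (TTGCNNAA), interferon response (GAAANNGAA), RUNX (TGTGGT) and partial CTCF (AGGGGGC) sites, each at 2 of 13 (15.4%) against 8.11%, 7.14%, 12.8% and 15.7%. The members' windows had a median GC content of 53.7% and a median of 6 CpG dinucleotides in 300 bases, against 61.0% and 21 for windows overlapped by any region. With 13 windows these shares are a description, and a match of letters is not a bound site.

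Both hypoxic monoculture lists were long and deep among the 8. They held 24370 and 26339 peaks, against 13333 and 9910 in normoxic monoculture, 21790 and 21826 in normoxic co-culture and 29658 and 21633 in hypoxic co-culture. The background coverage behind the peaks, worked out from the deposited fold and p-value, was 1.45 and 1.41 fragments in the hypoxic monocultures and ranged from 0.758 to 1.42 in the other 6 libraries. Peaks within 1 kb of an end of a microglial marker gene were found for 7 and 6 of 14 markers in the hypoxic monoculture lists, 3 and 3 in normoxic monoculture, 7 and 8 in normoxic co-culture and 7 and 6 in hypoxic co-culture, and those of Aif1, Csf1r, Itgam, P2ry12 and Sall1 had none in any of the 8 lists. Glioma and glial markers had 0 of 14 in each monoculture list and 1 to 3 of 14 in the co-culture lists.

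The number of these regions depended on how the lists were cut. When every list was cut to its 9903 strongest peaks, 396 regions met the rule, and 64 of the 839 (7.63%) were among them. When instead the peaks were scaled to the lowest background coverage of the 8 libraries, 758 regions met it, and 678 of the 839 (80.8%) were kept. Scaled to the coverage of each other library in turn, 793 to 829 of the 839 would still have passed the authors' threshold in both hypoxic monoculture lists. Without replicate 1 of hypoxic co-culture, 1814 regions met the rule.

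Most of the regions were weak peaks in the lists that contained them. Ranked by the deposited −log10 p within each list, their median percentile was 28.8 in replicate 1, with quartiles of 15.6 and 45.9, and 33.1 in replicate 2, with quartiles of 19.5 and 50.7. The median fold over background was 5.82 and 6.27, against medians of 6.9 and 7.05 over all peaks of these lists. A median of 19 and 22 fragments lay over the summits, with a range of 8 to 118 and 8 to 110. The lower of the 2 percentiles was at least 25 for 397 regions, at least 50 for 129, at least 75 for 14 and at least 90 for 2.

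**Figure D1:**
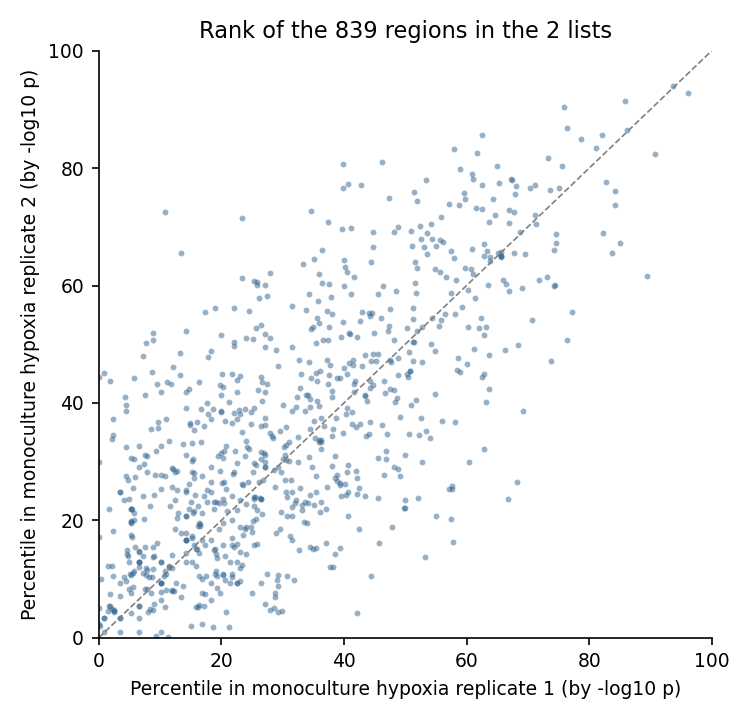
Percentile of each of the 839 regions among the peaks of monoculture hypoxia replicate 1 (x axis) and replicate 2 (y axis), ranked by the deposited −log10 p, with the line of equal rank dashed. Most points lie below the middle of both axes, and 502 of 839 lie above the dashed line.

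The rule requires peaks of both replicates in the same merged region, so the distance between their summits is bounded by the selection and is a description only. Summits of the 2 replicates were a median of 42 bp apart, and 675 pairs (80.5%) lay within 100 bp. Among the 6372 regions of all 8 lists the same median was 37 bp and the same share 82.4%. Percentiles in the 2 lists had a Pearson correlation of 0.716 and a Spearman correlation of 0.681 across the 839 regions, which share libraries and are not independent. The plot of ranks shows this spread, and 502 regions ranked higher in replicate 2. Their median width was 515 bp, against 615 bp over all merged regions and 988 bp over those in all 8 lists.

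Few of the regions lay at gene ends. Only 43 of 839 (5.13%, exact 95% interval 3.73 to 6.84) had a protein-coding gene's end within 1 kb, against 24.6% of all merged regions. For regions only in hypoxic co-culture the share was 25.0% (22.1 to 28.2), and for regions only in normoxic co-culture 21.6% (17.2 to 26.5). The 16 regions only in normoxic monoculture had 1 near a gene end (6.25%, 0.158 to 30.2), an interval that takes in the shares just given. The intervals cover counting error only. The median distance to a gene end was 24.6 kb for the hypoxic monoculture regions, 11.0 kb for those of hypoxic co-culture and 12.3 kb over all merged regions. A distance over 50 kb was found for 259 of 839 (30.9%), against 20.2% and 21.4% in these sets.

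**Figure D2:**
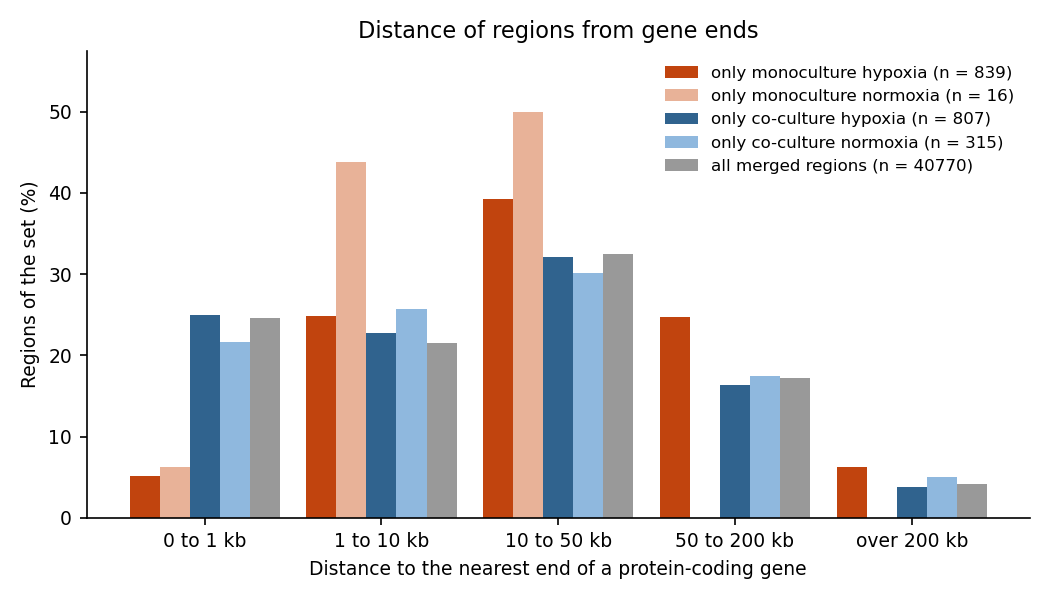
Share of regions (y axis, %) by distance from the nearest protein-coding gene end (x axis, 5 distance classes), for regions found only in hypoxic monoculture, only in normoxic monoculture, only in hypoxic co-culture, only in normoxic co-culture, and for all merged regions. In the class up to 1 kb the hypoxic monoculture bar is at 5.13%, that of normoxic monoculture, with 16 regions, at 6.25%, and the others are at 21.6% to 25.0%.

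The distance plot shows where the difference lay. Between 1 and 10 kb the hypoxic monoculture regions had 24.8%, against 22.7% for hypoxic co-culture and 21.5% for all regions. Between 10 and 50 kb they had 39.2%, against 32.1% and 32.5%. Gene starts gave the same picture as gene ends: 17 of 675 (2.52%, exact 95% interval 1.47 to 4.0) were within 1 kb of a start, against 166 of 642 (25.9%) of the regions only in hypoxic co-culture and 25.5% of all merged regions, where the nearest gene had an annotated start. Inside a protein-coding gene lay 447 (53.3%), against 62.7% and 61.9%. Exons and introns could not be told apart with the annotation used here.

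The low share near gene ends was also seen at equal rank. Among regions whose lower percentile was at most 25, 30 of 442 members (6.79%) were within 1 kb of a gene end, against 34.2% of the 3711 regions of the same rank that were in both hypoxic monoculture lists and in at least 1 other. From 25 to 50 the shares were 3.73% of 268 members and 30.7%, and from 50 to 75 they were 2.61% of 115 and 30.0%. Above 75, 0 of 14 members lay near a gene end, against 41.0%. Regions only in hypoxic co-culture, ranked in the same way in their own lists, had 23.9%, 20.2%, 41.3% and 69.2% in these 4 classes, the last over 13 regions, against 25.7%, 29.7%, 38.7% and 65.0% for their counterparts in at least 1 other list. In each class the share was lower for the hypoxic monoculture members than for both comparison sets.

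The share near gene ends was higher with each further list that held a region. Over the 19475 regions with a peak in both hypoxic monoculture lists, it went from 5.13% with 0 other lists to 7.29% with 1 (n = 1426), 8.65% with 2 (n = 1862), 16.5% with 3 (n = 2053), 31.5% with 4 (n = 3134), 39.9% with 5 (n = 3789) and 50.6% with all 6 (n = 6372). The median lower percentile was 23.9 and then 27.9, 36.6, 39.4, 40.3, 53.6 and 76.6 over the same steps. The 839 were 4.31% of these 19475 regions, and stood at one end of a gradual series.

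**Figure D3:**
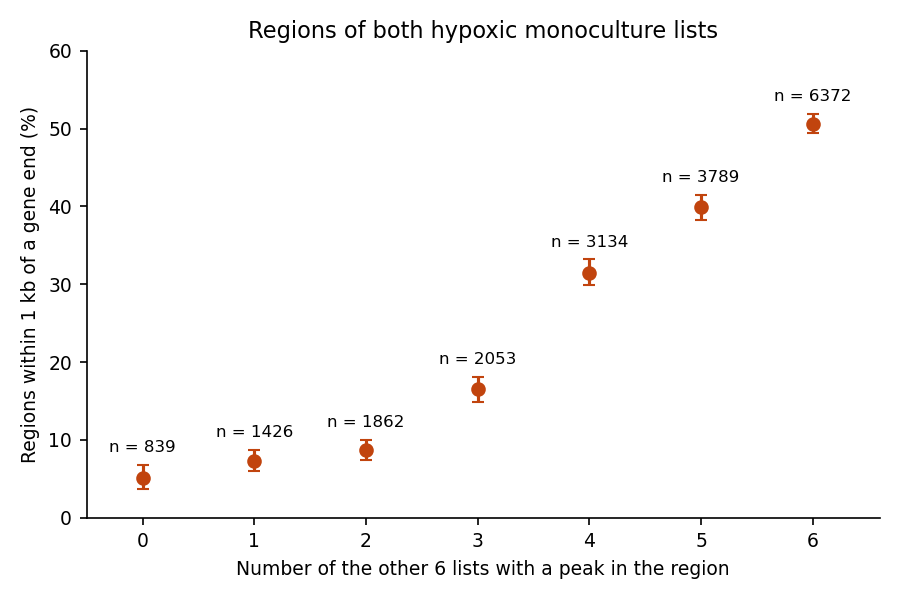
Share of regions with a protein-coding gene's end within 1 kb (y axis, %) against the number of the other 6 lists with a peak in the region (x axis), for regions in both hypoxic monoculture lists; bars are exact 95% binomial intervals. The share goes from 5.13% at 0 other lists to 50.6% at 6.

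Most regions just outside the rule were kept out by a single library. Of the 1426 regions with a peak in exactly 1 other list, 966 (67.7%) had it in replicate 1 of hypoxic co-culture, the longest list, and 135 had it in replicate 2, whose list was about as long as those of normoxic co-culture. Normoxic co-culture accounted for 118 and 109, and normoxic monoculture for 74 and 24. In that first hypoxic co-culture list the extra peaks had a median percentile of 34.1. The other peak that kept a region out of the set could be as weak as percentile 0.0 in the list of normoxic monoculture replicate 1, at chr17:75949227-75949842, or percentile 0.6 in that of hypoxic co-culture replicate 1, at chr1:160408936-160409377. At the inner edge, the 5 lowest ranked members had a percentile of 0.1 and a −log10 q of 2.2 to 2.33 in the weaker of their lists. They lay inside Map3k9, Mctp1 and Lix1 and nearest to Txndc16 and Herpud2.

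In monoculture alone, 7229 regions (17.7% of all merged regions) had a peak in both hypoxic lists and in neither normoxic list. The 839 were 11.6% of these, so that most regions of this kind were also found in at least 1 co-culture list.

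A related measure that the selection did not use is the place of the regions that only 1 library held. None of these is a member. Within 1 kb of a gene end lay 7.97% and 5.65% of them in hypoxic monoculture (of 1405 and 2423 regions) and 5.88% and 8.91% in normoxic monoculture (of 323 and 247). In normoxic co-culture it was 11.0% and 13.3% (of 965 and 1334), and in hypoxic co-culture 10.5% and 15.5% (of 3295 and 904). All 4 monoculture libraries were below all 4 co-culture libraries.

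**Figure D4:**
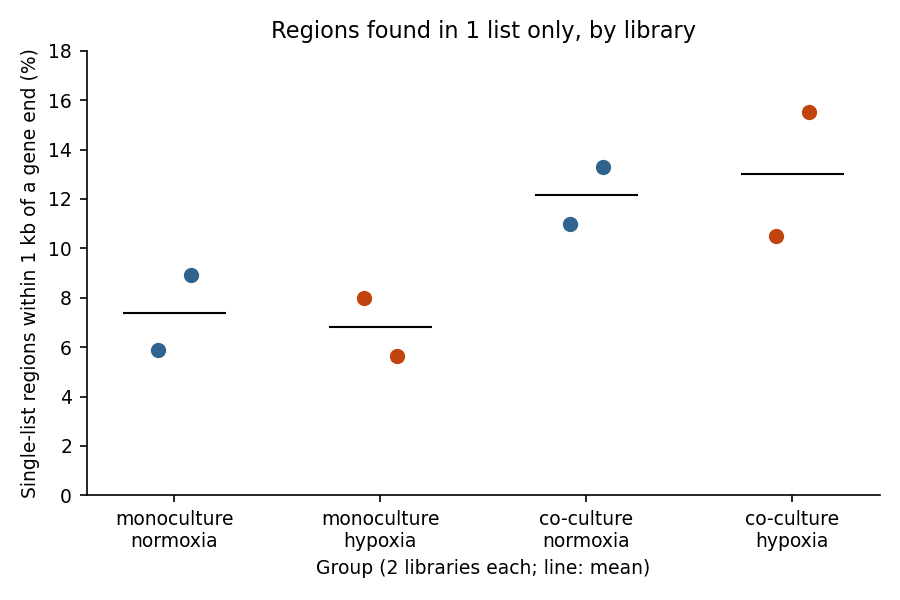
Share of regions found in 1 list only that lie within 1 kb of a gene end (y axis, %), by group (x axis), with 1 point per library and a line at the mean of each group. The 4 monoculture libraries lie between 5.65% and 8.91% and the 4 co-culture libraries between 10.5% and 15.5%.

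The mean of the single-list shares was 12.6% ± 2.29 (SD, n = 4) in co-culture and 7.1% ± 1.59 (SD, n = 4) in monoculture, a difference of 5.46 percentage points. A two-sided exact permutation test of the libraries within oxygen level gave p = 0.0556, the smallest that its 36 relabellings allow. Other settings gave higher values: the same exact permutation test had p = 0.111 at a −log10 q of at least 3 in every list, with lists scaled to the lowest background coverage, and without replicate 2 of hypoxic monoculture. With lists of equal length the difference was 23.9 points and the exact p was 0.167. The test was chosen after the data were seen. Over all regions of each list the shares ran from 28.4% to 42.2% and were lowest in the 3 longest lists. The glioma markers with a peak (0 of 14 in monoculture, 1 to 3 of 14 in co-culture) differed between the same libraries, and their part in the difference was not tested.

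Another peak within 10 kb was present for 38.0% and 39.8% of the 839 regions in the hypoxic monoculture lists and for 41.5% and 30.9% in hypoxic co-culture. In normoxic co-culture this held for 31.8% and 31.9%, and in normoxic monoculture for 19.9% and 15.7%. Over all merged regions the shares were 34.3% and 36.7%, 39.8% and 30.5%, 30.4% and 31.3%, and 19.4% and 14.9% in the same order of groups. For the regions only in hypoxic co-culture the same shares were lower than the members' in each of the 8 lists, from 8.67% in normoxic monoculture replicate 2 to 38.4% in hypoxic co-culture replicate 1, and for those only in normoxic co-culture they ran from 11.7% to 34.3% in these lists. The lists differ in length, and this was not adjusted for.

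The nearest other merged region lay a median of 9.31 kb away, and within 1 kb for 60 members (7.15%). For 129 (15.4%) the nearest region was one found in all 8 lists, and for 33 it was another member. Over all merged regions the median was 9.09 kb, 9.37% had another within 1 kb, and for 15.0% the nearest was in all 8 lists, so the median spacing of the members was near that of all regions. Among the members, 740 had no other member within 50 kb, and 99 (11.8%) formed 47 groups, of which 5 held 3 members. For the 807 regions only in hypoxic co-culture, 115 (14.3%) had another of their own set that near. One group of 3 lay inside St7 (chr6:17778826-17811387), one inside Smco4 (chr9:15487890-15530108) and one inside Dmd, the dystrophin gene (chrX:84206408-84290529). The Dmd group included a very wide region of 46243 bp, in which the summits of the replicates were 12004 bp apart. Members were 2.9% of the merged regions on X, the highest share of any chromosome, and 1.33% on chromosome 11, the lowest. Of the members, 38 (4.53%) were on X, against 1.49% of regions only in hypoxic co-culture and 3.22% of all merged regions. Of the 1005 miRNA hairpins of the RefSeq table, 132 (13.1%) were within 1 kb of a merged region and 0 within 1 kb of a member. Members were only 2.06% of the merged regions, so these counts are not on the same footing.

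For the 658 members over 1 kb from a start whose nearest gene had one annotated, a peak lay within 1 kb of that start in 48.3% and 48.2% of cases in the hypoxic monoculture lists, and in 37.7% and 31.6% in normoxic monoculture. Normoxic co-culture gave 50.3% and 52.9% and hypoxic co-culture 53.6% and 48.8%. The start had a peak in all 8 lists for 180 members (27.4%) and in no list for 266 (40.4%). Over all merged regions at such distances these shares were 22.3% and 40.7%, and for regions only in hypoxic co-culture 16.2% and 41.2%. By library, the shares over all merged regions were 45.3% and 45.3% in hypoxic monoculture, 32.7% and 27.3% in normoxic monoculture, 47.1% and 50.7% in normoxic co-culture and 52.0% and 48.0% in hypoxic co-culture, each below the share of the members. No test was made of these differences.

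The strongest members are given here by the lower of their 2 percentiles. The first, at chr19:42639519-42639963, lay 26.7 kb from Loxl4, a lysyl oxidase that cross-links collagen, and reached percentile 93.7 in replicate 1 and 94.0 in replicate 2, with folds of 12.9 and 13.4 and 66 and 71 fragments at the summit. The next, at chr15:73604443-73605122 inside Slc45a4, had percentiles of 96.1 and 92.8. These were the only members above percentile 90 in both lists, and in the 6 other lists no peak touched either.

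A region inside Tbc1d1, which encodes a GTPase-activating protein linked to glucose uptake, was at chr5:64257238-64257807 and had percentiles of 86.2 and 86.5. At chr10:30380404-30380989, 153.2 kb from Trmt11, they were 85.8 and 91.5, and the folds of 13.2 and 14.7 were high among the members. Nod2, an intracellular sensor of bacterial cell wall fragments, held a member at chr8:88666401-88666871 with percentiles of 90.8 and 82.4. This region had the highest fragment numbers, 118 and 110, with folds of 5.21 and 4.34, since a fold divides the summit by the local background and the same fragments over a higher background give a lower fold.

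Inside Pacc1, which encodes a proton-activated chloride channel, the member at chr1:191334397-191334869 had percentiles of 82.1 and 85.6. Bach1 encodes a haem-regulated repressor that holds down haem oxygenase and other antioxidant genes, and its member at chr16:87716402-87716782 had 81.2 and 83.5. Further members of the first 15 lay in Mdn1, a ribosome assembly factor (82.8 and 77.7), in Klhl25, an adaptor of a ubiquitin ligase (75.5 and 80.4), and in Rftn1, a lipid raft protein (75.1 and 76.7). Rank 15 went to a member inside Cds2, an enzyme of phospholipid synthesis, at 84.3 and 73.8. One 18.8 kb from Actr3, a subunit of the actin-nucleating Arp2/3 complex, had 84.2 and 76.1. The other 3 of the first 15 were inside 1110059E24Rik (76.4 and 86.8) and nearest to Gm11677 (78.7 and 85.0) and Gm51965 (75.9 and 90.5).

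Genes with at least 1 member inside or within 10 kb numbered 615 of 21631 protein-coding genes (2.84%). Of the 309 genes on 11 lists, 14 (4.53%) had one, with 16 regions in all. Long genes offer more room for a region: the median length was 58.6 kb for the 615 genes and 17.3 kb for all, and lengths were not adjusted for.

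In the list of hypoxia and HIF targets, 2 of 49 genes (4.08%) had a member. Bnip3, which drives removal of mitochondria in low oxygen, had a member inside it at chr7:138906999-138907416 with percentiles of 50.3 and 45.0 and 75 and 81 fragments at the summit. Another lay 3.1 kb away at chr7:138886820-138887772, with 13.5 and 7.0. Pdk1, the kinase that keeps pyruvate out of mitochondria, had one 5.5 kb away at chr2:71867211-71867667, near the bottom of both lists with 0.3 and 10.0. The other 47 targets, Vegfa, Slc2a1 and Ldha among them, had none.

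Microglia and macrophage identity had 2 of 40 genes. Axl, a receptor tyrosine kinase for clearance of dying cells, held a member at chr7:25776735-25777115 with percentiles of 70.3 and 76.6. Of the 4 merged regions at Axl, 1 was in all 8 lists. Spp1, which encodes the secreted protein osteopontin, had a member 4.8 kb away with percentiles of 8.4 and 4.9. The lists of interferon and antigen presentation (38 genes), inflammatory signalling (35) and oxygen-dependent chromatin demethylases (19) had 0.

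**Figure D5:**
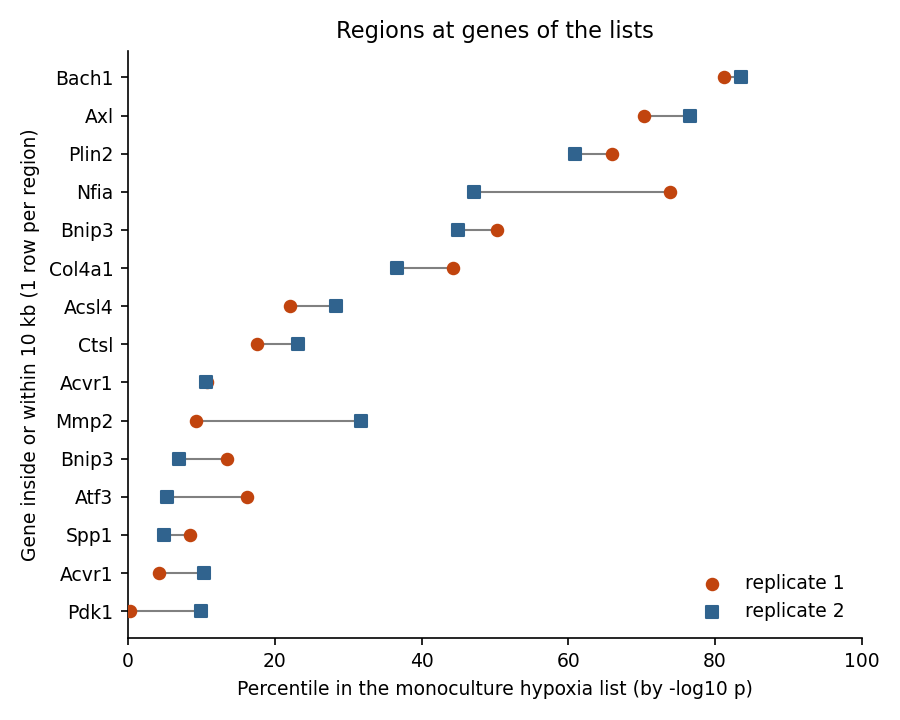
Percentile of 15 members at genes of the lists in monoculture hypoxia replicate 1 (circles) and replicate 2 (squares) on the x axis, with 1 row per region named by its gene on the y axis. Bach1, Axl and Plin2 are above percentile 60 in both replicates, and 9 of the 15 regions are below percentile 35 in both.

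As the plot of list genes shows, the members at these genes ran from the bottom of the lists up to Bach1, below the strongest members. AP-1 and ATF factors had 2 of 19 genes (10.5%): Bach1, given above, and Atf3, a stress-induced factor, with a member 6.4 kb away at percentiles 16.2 and 5.3. Matrix, protease and adhesion genes had 3 of 28 (10.7%). Inside the collagen gene Col4a1 the values were 44.3 and 36.7, inside the gelatinase gene Mmp2 9.3 and 31.8, and 2.9 kb from the lysosomal protease gene Ctsl 17.6 and 23.2. Mmp2 and Nfia had replicates farthest apart among the 15 regions plotted.

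Lipid handling had 2 of 23 genes (8.7%). A member 6.0 kb from Plin2, which coats lipid droplets, had percentiles of 66.0 and 60.9, and one inside Acsl4, which activates polyunsaturated fatty acids, 22.1 and 28.3. TGF-beta signalling had 1 of 18 genes, the receptor gene Acvr1, with members 3.0 kb and 1.4 kb away on either side of it that ranked no higher than 10.7 in either list. Nfia, a glial transcription factor gene, was the 1 of 22 glioma and glial genes, with 73.8 and 47.2. These counts of 0 to 3 genes per list stand beside 2.84% of all protein-coding genes and set no list apart.

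Most genes had a single member. Of the 615 genes, 581 had 1, 26 had 2, 7 had 3 and 1 had 4. The 4 were in Pde4b, which encodes a phosphodiesterase that degrades cyclic AMP in immune cells, and were 4 of the 23 merged regions at that gene of 519.9 kb. Their lower percentiles were 12.8, 26.6, 59.1 and 68.1. Dmd, Lrmda, Macrod2, Plcb4, Ralgapa2, Smco4 and St7 had 3 each. At Smco4, a gene of 76.8 kb, they were 3 of the 5 merged regions, whereas at Macrod2, a gene of 1997.7 kb, they were 3 of 31. The members of Dmd had lower percentiles of 3.4, 3.4 and 9.3, the last for the region of 46243 bp. Those of Plcb4, a phospholipase C gene, had 25.9, 29.3 and 62.6.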

How the data were processed

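The data were 8 peak lists, 1 per library, so peaks were called in each library and replicates were not pooled. Per the submitters' processing notes, Trimmomatic 0.36, HISAT2 2.1.0, Picard, SAMtools, deepTools and MACS2 were used with mm10. Read numbers are not given in the sources used here. For each peak the authors deposited a score, a fold (the ratio of the summit to local background), its p and q as −log10 values, and the summit's offset in bp. The deposited score is the −log10 q times 10 in whole numbers and was not used. Folds and −log10 values were used only within a list. Whole fragments at the summit and the background were recovered from fold and −log10 p by a Poisson model, to within 0.001 in −log10 p, for 99.8% to 99.9% of peaks.

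Peaks on chromosomes 1 to 19 and X were merged where they overlapped by 1 bp (Python 3.11.15, pandas 2.3.3, scipy 1.17.1). Gene positions and promoter sequences were RefSeq tables of GRCm38.p6. Starts were listed for 79.9% of the 21631 protein-coding genes, none on chromosome 18, so gene ends were the main measure. The planned motif search around summits needs a genome and was not run, and promoter windows took its place. Merging and distances were tested on simulated peaks. Named regions were the 15 highest by the lower percentile, those at list genes, genes with the most members (8, as 7 tied at 3 members), and the 5 lowest. The region at 1 list gene is not reported here. Members and lists were chosen with earlier results of these data known. The replicates are biological per the labels. Their numbers were not used to pair libraries in the main test, and whether they mark a shared batch was not tested.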

Additional observations from a re-analysis of the deposited data

How the results depend on the processing

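The number of regions only in hypoxic monoculture was 396 with lists of equal length, and those only in normoxic monoculture, normoxic co-culture and hypoxic co-culture were then 235, 171 and 434. Fewer peaks entered every list but 1 under that setting. Normoxic monoculture alone also moved, from 16 to 9 at a −log10 q of at least 3, to 29 with summits widened by 250 bp to either side in place of peaks, and to 28 without peaks wider than 10 kb; the cause was not tested. Leaving out 1 library at a time gave 868 to 3278 regions only in hypoxic monoculture, 16 to 347 only in normoxic monoculture, 326 to 1662 only in normoxic co-culture and 811 to 4133 only in hypoxic co-culture, since fewer lists must then hold or lack a peak. Under the other settings the hypoxic monoculture number stayed between 758 and 923. The share of its regions within 1 kb of a gene end was 4.04% to 6.7% under every setting tried. The co-culture minus monoculture difference in single-list regions was positive under every setting, at 3.98 to 23.9 points against 5.46, with the highest value for lists of equal length. Its exact p ran from 0.0556 to 0.167, and leaving out 1 library gave 4.65 to 8.27 points. With labels swapped only within replicate number (replicate block) the difference is the same 5.46 points. Its exact p was 0.125, the smallest that the 16 relabellings of this test allow. Replicate numbers did not pair the libraries. Between groups, replicate differences in the presence or absence of a peak per merged region correlated at -0.02 to 0.039.

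Depth limits these lists. A peak absent from a shallow list is not shown to be closed DNA, and read totals are not given in the sources used here. No single region was tested, since the same lists chose the members. The annotation has no exons, and the sequence of distal members was not used here.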
